A study of Mus musculus with 41 samples.

Results

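The genes described here encode the proteins of the small (40S) ribosomal subunit. The 29 members, Rps2 to Rps29 together with Rps27l, Rpsa and Fau, were taken by symbol as a family. The symbols alone set the membership, and the family was picked with earlier results of these data known. They were 29 of the 55385 genes of the RNA tables and of the 22438 genes of the footprint tables. Each was followed through ribosome footprints (the RNA fragments protected by translating ribosomes), mRNA, and translation efficiency (TE), the footprint level relative to the RNA level.

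Footprints were sequenced from 3 wild-type and 3 Hbs1l-/- whole embryos at E8.5 (C57BL/6NJ, several embryos pooled per replicate). They were also sequenced at P14 from 3 control (Tg(Atoh1-Cre); Hbs1l+/+) and 3 Tg(Atoh1-Cre); Hbs1l cKO cerebella (C57BL/6J), in which Cre acts in the granule cell lineage. The cKO mice were Hbs1l fl/-, so cells without Cre kept a single Hbs1l allele. Footprints and mRNA were both measured in primary mouse embryonic fibroblasts (MEFs, C57BL/6), where control and mutant cells alike carried the inducible CAG-CreER and were treated with tamoxifen. The MEFs were control, Hbs1l-/-, Pelo-/- or labelled Upf2-/-, made with Cre from Hbs1l fl/-, Pelo fl/fl and Upf2 fl/fl cells, with 3 replicates per genotype from individual embryos, except that there were 2 Pelo-/- RNA libraries. Each mutant's footprints were sequenced in a pool with 3 control libraries. The cKO mice and all MEFs, controls included, were homozygous for the B6J allele of the tRNA gene n-Tr20, which lowers its level.

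The small subunit binds the mRNA, scans for the start codon and decodes each codon. Its proteins are needed in near-equal numbers, their mRNAs are among the most abundant in dividing cells, and many of these mRNAs start with a run of pyrimidines (the TOP motif) through which the mTOR pathway and LARP1 adjust their translation. PELO and HBS1L recognize stalled ribosomes at the decoding site of the small subunit and help split them, and UPF2 acts in nonsense-mediated decay (NMD), which removes transcripts with premature stop codons.

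Depth ranged from 2634480 to 7298812 counts on genes per footprint library in embryos, from 10919139 to 22591768 in cerebella and from 5782990 to 25607974 in MEFs, and from 22713643 to 86425762 estimated counts per RNA library. Control MEF footprint libraries of the same number differed between pools by close to counting noise (chi-square per gene 1.11 to 1.19, against 4.04 to 11.6 between different numbers), so each number was counted as 1 sample where mutants were compared directly. Hbs1l and Pelo fell in their own mutants. Upf2 did not: in the libraries labelled Upf2-/- its footprints stood at 114 to 118 CPM (here counts scaled to the library total; member values per library below are also TMM scaled) against 47.0 to 57.8 CPM in the controls of the pool, and its RNA at 8.61 to 20.6 TPM (transcript abundance scaled for length and library) against 3.82 to 5.63 TPM. These counts cover the whole gene and not the deleted part, so they do not check the label, and the group is called by its label below. Fibroblast markers were high in every MEF library (8 genes, summed footprints of 45656 to 54781 CPM).

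The members took 2.50 to 2.97% of all RNA counts in control MEFs but 0.242 to 0.254% of the footprint counts. The RNA share was higher in Hbs1l-/- (3.01 to 3.21%) and lower in Pelo-/- (2.05 to 2.08%) and in libraries labelled Upf2-/- (2.31 to 2.45%), with no overlap with controls in any of these genotypes. The footprint share was above every control library in all 3 mutants, at 0.264 to 0.283% in Hbs1l-/-, 0.339 to 0.3499% in Pelo-/- and 0.262 to 0.292% in libraries labelled Upf2-/-. Pelo-/- MEFs had the lowest RNA shares and the highest footprint shares of the MEF groups. These shares are descriptions and depend on everything else counted in a library.

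**Figure D1:**
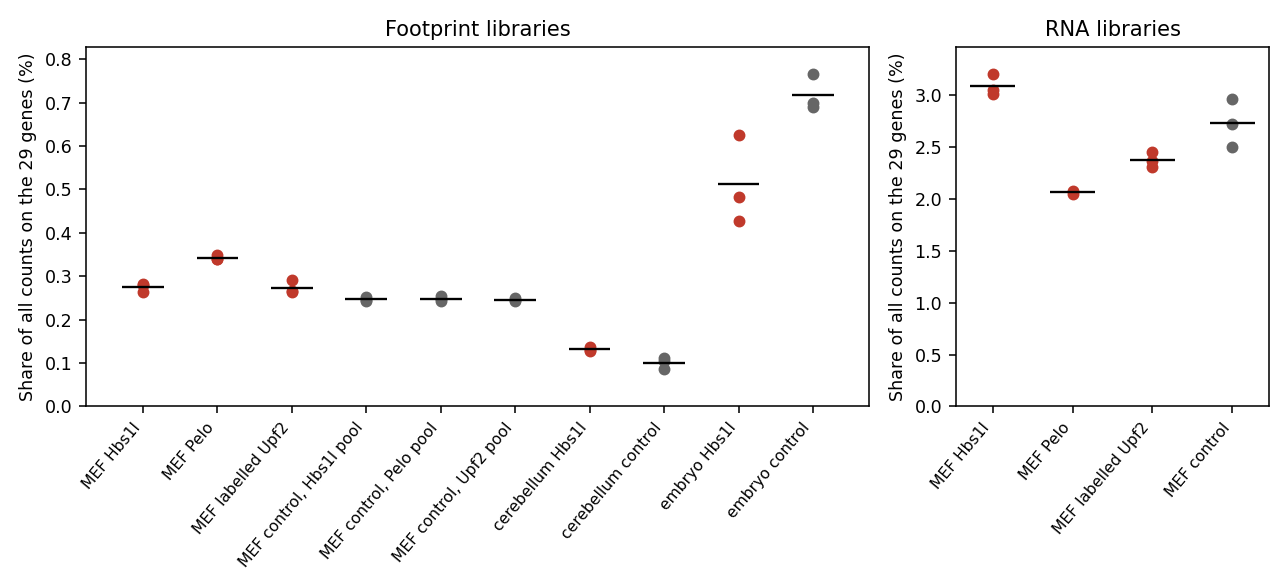
Share of all counts that fell on the 29 genes (y axis, percent, starting at 0) in each footprint and RNA library. Points are libraries and bars are group means. Pelo-/- MEFs lie highest among MEF footprints (0.339 to 0.3499%) and lowest among RNA libraries (2.05 to 2.08%).

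Within control MEFs, RNA levels of the members lay between 524 TPM (Rps23) and 4486 TPM (Rps2), whereas footprints per kb of coding sequence ranged from 0.623 CPM (Rps10) to 1083 CPM (Rps3). Rps3, a protein of the mRNA entry channel, had the highest ratio of footprints to RNA, at 0.606 CPM per kb per TPM. Rps27l, the paralog of Rps27, followed at 0.474, and then Rps21 at 0.226, Rps9 at 0.222 and Rps14 at 0.186. At the other end were Rpsa (0.000973), Rps27 (0.000941) and Rps10 (0.000209). Rps10 had 2983 ± 356 TPM of RNA (SD, n = 3) but too few footprints to be tested, so 28 of the 29 members were tested in footprints and TE.

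Members whose coding sequence also occurs in other transcripts, such as those of processed pseudogenes, had lower ratios. The share of 28-base windows of each coding sequence found in transcripts of other genes was counted. The windows and the length per kb came from the longest annotated protein-coding isoform, which need not be the most abundant. For Rps24 this was Rps24-210, at 4.90 to 5.10% of Rps24 RNA in control MEFs. The 6 members with at most 75% shared windows had a median ratio of 0.204 (range 0.119 to 0.606). The 13 members between that and 99.5% had a median of 0.0503 (0.000209 to 0.226). The 10 members with every window shared (Rps6, Rps13, Rps16, Rps23, Rps27, Rps27a, Rps28, Rps29, Rpsa and Fau) had a median of 0.00517 (0.000941 to 0.0365). For Rps3 the shared portion was 22.2%. How footprints that map to several genes were counted is not given in the sources used here, and its part in these ratios was not tested. Levels and ratios across members are given as a description, and every test compares a member with itself between groups. Sharing may still bear on these tests, and its part in the changes below was not tested. Several of the largest footprint changes below were in members with much sharing, namely Rps16, Rps23 and Fau (100%), Rps25 (98.3%) and Rps12 (89.9%). Other members with every window shared (Rps6, Rps13, Rps27, Rps28, Rps29 and Rpsa) were not called in footprints of any MEF mutant.

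**Figure D2:**
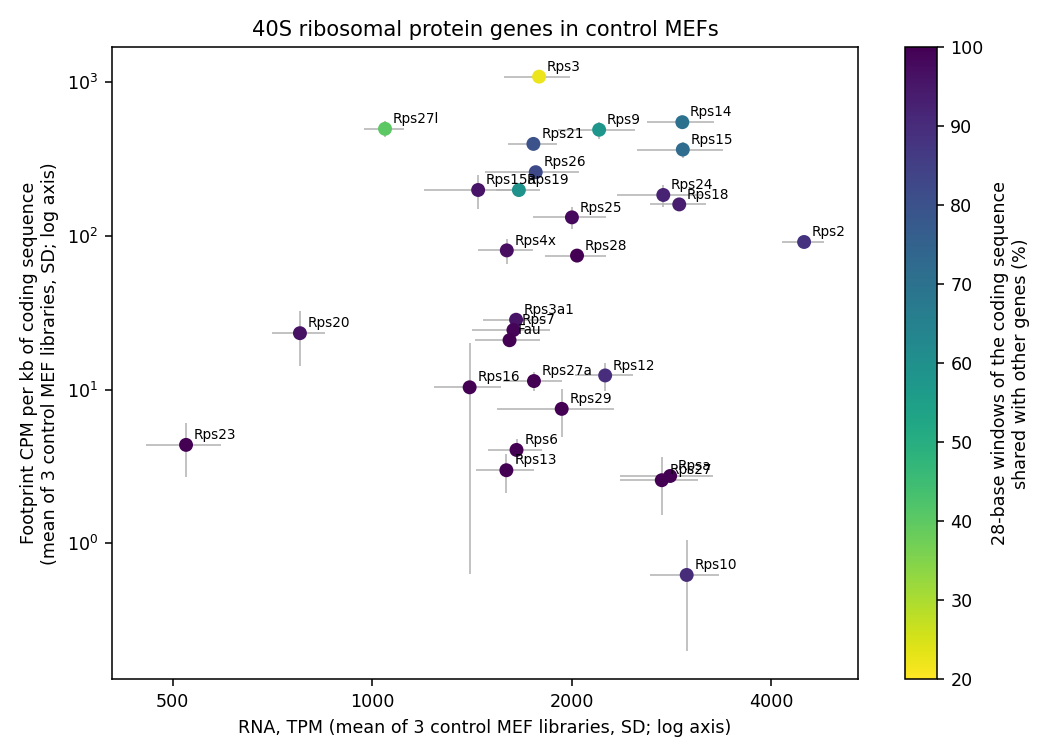
Footprint CPM per kb of coding sequence (y, log axis) against RNA in TPM (x, log axis) for the 29 genes in control MEFs, as means of 3 libraries with SD (a lower SD bar that would reach 0 is shortened). Color gives the percentage of 28-base windows of the coding sequence shared with other genes. Rps3 (22.2% shared) lies at 1083 CPM per kb, whereas Rps27 and Rpsa (100% shared) lie at 2.57 and 2.74 CPM per kb.

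In Pelo-/- MEFs, mRNAs of most small-subunit proteins fell and footprints of most rose, although not always for the same gene. RNA of 21 of 29 members fell (edgeR quasi-likelihood test, adjusted p of at most 0.05, Benjamini-Hochberg over all genes tested), against 16.6% of all genes called lower, and no member rose. All 29 estimates were below 0, with a median log2 change of -0.43 compared with -0.01 over all 14705 genes. Footprints of 16 of 28 members rose, against 22.9% of all genes called higher, none fell, and the median log2 change was 0.47. TE of 25 of 28 members rose, against 24.3% of all genes called higher, with a median log2 change of 0.98 compared with 0.04 over all genes.

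Rps24, a protein mutated in Diamond-Blackfan anemia, showed the largest fall in RNA. It was at 316 and 417 CPM against 795, 769.7 and 942 CPM in controls (log2 change -1.19 ± 0.15 (SE), adjusted p = 0.0024). Its footprints stood at 85.5, 81.97 and 74.2 CPM against 67.7, 76.4 and 85.4 CPM and were not called, and its TE rose by 1.28 ± 0.18. Rps3a1, near the platform of the subunit, was at 478 and 533 CPM against 1117, 989 and 1159 CPM in RNA (-1.11 ± 0.11, adjusted p = 0.0012). Here the footprints were also higher, at 30.4, 27.4 and 33.4 CPM against 22.5, 23.995 and 20.2 CPM (0.45 ± 0.11, adjusted p = 0.0061), and TE rose by 1.58 ± 0.15. RNA was separate between the groups for both genes. RNA of Rps15a was at 348 and 404 CPM against 594, 545 and 638 CPM, that of Rps14 at 829 and 751 CPM against 1338, 1045 and 1338 CPM and that of Rps27a at 448 and 533 CPM against 767, 699 and 828 CPM, with falls of 0.66, 0.65 and 0.64 on the log2 scale. The other 16 called members fell by 0.35 to 0.63.

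Rps16, whose tail reaches the peptidyl site, had the largest rise in footprints. It was counted at 21.8, 16.4 and 13.7 CPM against 3.34, 4.15 and 2.32 CPM in the controls of its pool, a 5.22-fold difference (log2 change 2.38 ± 0.23, adjusted p = 3.07e-05). Its RNA was 461 and 495 CPM against 576, 534 and 646 CPM (-0.29 ± 0.11, adjusted p = 0.076), and its TE rose by 2.69 ± 0.26. Over the 9 control MEF libraries of the 3 pools Rps16 ranged from 1.34 to 9.46 CPM, and control libraries numbered 1 alone gave 9.46, 3.34 and 1.42 CPM in different pools. The Pelo-/- values were above all 9.

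Rps23, which carries the hydroxylated proline of the decoding center, was at 5.14, 3.28 and 13.5 CPM against 0.968, 3.01 and 1.07 CPM in footprints (2.13 ± 0.57, adjusted p = 0.013). One mutant library lay well above the others, and the lowest mutant value lay just above the highest control value of its pool, but not above the highest of all 9 control MEF values (3.69 CPM). The call was lost under 2 of 11 alternatives (adjusted p up to 0.057 by edgeR, without control replicate 1 or 3), and the log2 change ran from 1.30 without mutant replicate 3 to 2.86 without control replicate 2. Fau, made as a fusion of a ubiquitin-like protein with Rps30, was at 18.3, 20.4 and 19.7 CPM against 8.802, 8.78 and 8.29 CPM, a 2.26-fold rise (1.17 ± 0.11, adjusted p = 2.03e-05). For Fau the replicates were tight and the groups far apart. Rps25, needed by several viral internal ribosome entry sites, was at 83.6, 122 and 98.5 CPM against 55.1, 49.3 and 45.3 CPM (1.02 ± 0.13). Rps18, in the head of the subunit, was at 92.2, 135 and 120.1 CPM against 71.7, 73.04 and 60.3 CPM (0.76 ± 0.13).

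Smaller rises were called as well. Rps3 stood at 1106, 1174 and 1072 CPM against 811, 828 and 794 CPM (0.46 ± 0.06, adjusted p = 0.00029), while its RNA was 1366 and 1340.3 CPM against 1805, 1468 and 1805 CPM (-0.32 ± 0.12, adjusted p = 0.075) and its TE rose by 0.81 ± 0.14. Footprints of Rps9 rose by 0.64 ± 0.10, those of Rps14 by 0.52 ± 0.07, of Rps19 by 0.48 ± 0.06 and of Rps2 by 0.41 ± 0.08. Rps27l footprints were 171, 147 and 145 CPM against 156, 139 and 178 CPM and were not called, but its RNA fell by 0.60 ± 0.10 and its TE rose by 0.59 ± 0.15.

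Rps2, Rps3, Rps10 and Rps20 are ubiquitinated at stalled ribosomes. Rps20 RNA fell by 0.53 ± 0.12 and its TE rose by 1.15 ± 0.29, with a footprint change of 0.61 ± 0.24 (adjusted p = 0.066). RNA of Rps10 fell by 0.45 ± 0.12, and that of Rps2 changed by -0.20 ± 0.13 with a TE rise of 0.64 ± 0.16. Rps27a, the ubiquitin fusion, rose in footprints (0.70 ± 0.18) and in TE (1.37 ± 0.20). For Rpsa, the laminin receptor, RNA changed by -0.25 ± 0.12 and footprints by 0.68 ± 0.26, neither past the threshold, and TE rose by 0.93 ± 0.26. TE was not called for 3 members. That of Rps6, the S6 kinase substrate, was -0.06 ± 0.30 with footprints at 1.56, 2.74 and 3.07 CPM against 3.61, 2.36 and 4.63 CPM, and those of Rps27 and Rps29 were 0.86 ± 0.38 and 1.00 ± 0.40.

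Joining both assays, 11 members rose in footprints and fell in RNA, a class that held 3.25% of all genes tested in both. Another 5 (Rps2, Rps3, Rps9, Rps16 and Rps23) rose in footprints with no RNA call (14.5% of all genes), and 9 fell in RNA with no footprint call (10.2%). Of the 16 members that rose in footprints, 13 had all mutant values above all 9 control MEF values. These 9 values stand for 3 control samples counted in 3 pools, and the share of all genes was not computed. The groups did not overlap for 28 of 29 members in RNA, all lower, where 31% of all genes were lower without overlap, and for 16 of 28 in footprints, all higher, where 28.5% of all genes were. The RNA calls rested on both Pelo-/- libraries, since fewer members were called without either. Without replicate 1 or 2 all 29 RNA estimates stayed below 0, with medians of -0.38 and -0.48 against -0.43 with both. For the 60S subunit, 31 of 48 genes tested fell in RNA (median -0.40), 35 of 46 rose in footprints (0.58) and 38 of 46 rose in TE (1.07).

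**Figure D3:**
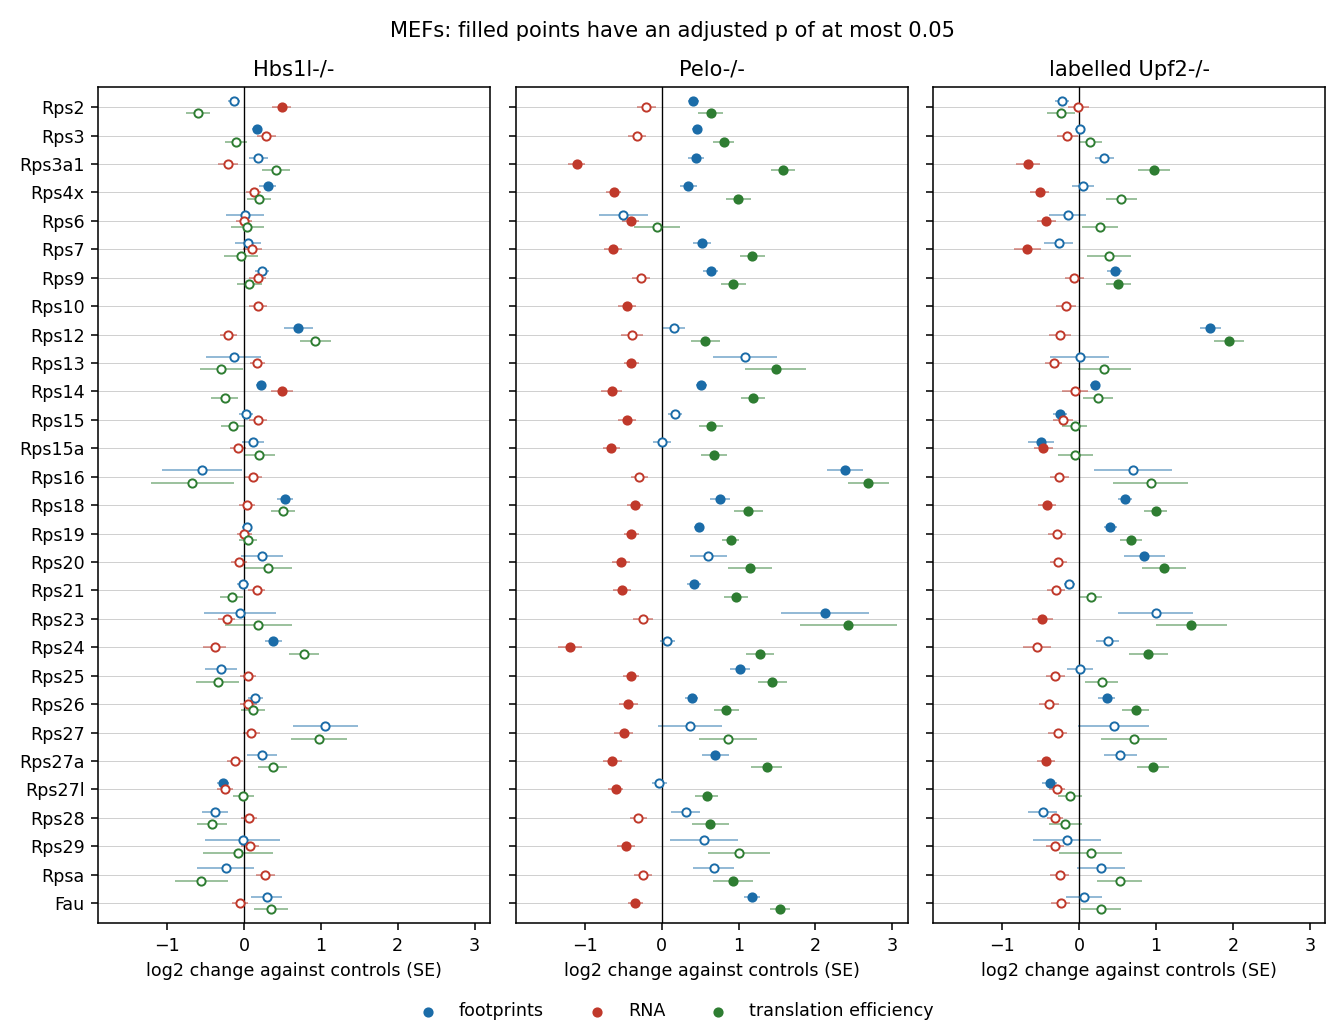
Log2 change against controls for each of the 29 genes in Hbs1l-/-, Pelo-/- and labelled Upf2-/- MEFs, for footprints, RNA and TE, with SE; filled points have an adjusted p of at most 0.05. In Pelo-/- every RNA point is below 0 (median -0.43) and TE points lie above 0 except Rps6 (-0.06), and Rps12 stands out in the labelled Upf2-/- panel (TE 1.95).

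In the libraries labelled Upf2-/-, RNA estimates of the members were also all below 0, with a minority called lower. Called footprint changes lay in both directions, near or below the share of all genes. RNA of 8 of 29 members fell, against 6.76% of all genes called lower, with all 29 estimates below 0 and a median of -0.30 (all genes -0.02). Footprints of 7 of 28 members rose and of 3 fell, where 22.3% of all genes were called higher and 21.1% lower (43.4% in either direction). TE of 10 of 28 members rose and none fell, against 8.47% of all genes called higher. The groups did not overlap for 20 of 29 members in RNA, all lower, where 18% of all genes were lower without overlap. The RNA count was 2 without mutant replicate 2 or 3 or control replicate 1 and 1 without control replicate 3. In these fits 395 to 671 of all genes were called lower, against 1081 with all libraries, and the members' median was -0.25 to -0.31. The footprint count was 6 without mutant replicate 3 or control replicate 1, where 4780 of 12442 and 4174 of 12190 genes were called. Without mutant replicate 2, 5 rose and 5 fell in footprints, where 2177 of 12415 genes were called higher and 2070 lower.

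Rps12, a beak protein known in flies for its part in cell competition, was the member with the largest footprint and TE change. Its footprints stood at 19.6, 18.7 and 21.1 CPM against 5.24, 6.04 and 6.86 CPM, a 3.27-fold rise (1.71 ± 0.14, adjusted p = 7.02e-06), and none of the 9 control MEF libraries exceeded 6.86 CPM. Its RNA was 800.3, 659 and 615 CPM against 891, 711 and 873 CPM (-0.25 ± 0.14, adjusted p = 0.23), and its TE rose by 1.95 ± 0.20 (adjusted p = 4.23e-05). In Pelo-/- the footprints of Rps12 were 7.72, 6.75 and 6.802 CPM against 6.69, 5.94 and 6.42 CPM and were not called.

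Rps20 footprints were 11.7, 11.4 and 19.8 CPM against 6.65, 11.3 and 5.66 CPM (0.85 ± 0.27, adjusted p = 0.025), with groups that all but touched. Rps18 was at 101, 118 and 102 CPM against 75.7, 75.6 and 62.2 CPM (0.59 ± 0.09) although its RNA fell by 0.42 ± 0.12. Rps9, at the mRNA entry, was at 361, 404 and 425 CPM against 302, 319 and 242 CPM (0.46 ± 0.10), and Rps19, Rps26 and Rps14 rose by 0.41, 0.36 and 0.21. Rps15a fell instead, at 54.0, 69.8 and 40.4 CPM against 80.5, 63.3 and 89.9 CPM (-0.49 ± 0.17, adjusted p = 0.035), and 1 mutant value lay within the control range. This call was lost under 6 of 11 alternatives (adjusted p up to 0.12 by edgeR), and that of Rps20 under 3 of 11 (0.13). Rps27l (-0.39 ± 0.10) and Rps15 (-0.25 ± 0.09) also fell.

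The largest RNA falls were those of Rps7, Rps3a1, Rps4x, Rps23 and Rps15a. Rps7 was at 869, 520.0 and 642 CPM against 1110.1, 943 and 1187 CPM (-0.67 ± 0.18) and Rps3a1 at 809.7, 730.1 and 551 CPM against 1156, 987 and 1177 CPM (-0.67 ± 0.15). Rps4x was at 803, 825 and 685 CPM against 1149, 993 and 1166 CPM (-0.52 ± 0.13), Rps23 at 265, 222 and 201 CPM against 327, 278 and 353 CPM (-0.48 ± 0.13) and Rps15a at 469, 444 and 396 CPM against 615, 544 and 648 CPM (-0.47 ± 0.12). The RNA calls of Rps7, Rps23 and Rps15a were each lost under 4 of 13 alternatives and that of Rps4x under 1. Rps6 (-0.43 ± 0.12) and Rps27a (-0.43 ± 0.12) fell too, while Rps2 (-0.01 ± 0.14), Rps3 (-0.16 ± 0.13), Rps10 (-0.17 ± 0.13), Rps20 (-0.27 ± 0.11), Rps27 (-0.28 ± 0.12), Rps27l (-0.29 ± 0.11), Fau (-0.24 ± 0.12) and Rpsa (-0.26 ± 0.13) were not called.

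TE also rose for Rps23 (1.46 ± 0.47; the call was lost under 7 of 19 alternatives), Rps20 (1.10 ± 0.29), Rps18 (1.00 ± 0.15), Rps3a1 (0.98 ± 0.21), Rps27a (0.96 ± 0.21), Rps24 (0.90 ± 0.25), Rps26 (0.73 ± 0.18), Rps19 (0.68 ± 0.15) and Rps9 (0.51 ± 0.16). It was not called for Rps6 (0.27 ± 0.23), Rps2 (-0.24 ± 0.18), Rps3 (0.15 ± 0.15), Rps27 (0.71 ± 0.43), Rps27l (-0.12 ± 0.15), Fau (0.28 ± 0.26) and Rpsa (0.53 ± 0.29). The median TE change was 0.45 over the members and 0.10 over the 44 tested 60S genes, of which 8 rose in TE, and in footprints 8 of those 60S genes rose and 10 fell.

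In Hbs1l-/- MEFs few members were called, although their summed RNA and footprint shares lay above all controls. Footprints of 6 of 28 rose and of 1 fell, where 17.4% of all genes were called higher and 16.7% lower (34.1% in either direction). The higher calls were thus near the share of all genes. The members' median was 0.08, and ran from 0.03 without Hbs1l-/- replicate 1 to 0.22 without Hbs1l-/- replicate 3. RNA of 2 of 29 rose, against 12.7% of all genes called higher. TE of none was called by edgeR, where 0.0336% of all genes were, 6 members were past an unadjusted p of 0.05 (17.3% of all genes), and DESeq2 called 4, 3 higher and 1 lower (2.81% of all genes). Rps12 was again the member with the largest called footprint rise, at 7.69, 10.2 and 9.69 CPM against 5.04, 4.88 and 6.79 CPM (0.71 ± 0.19, adjusted p = 0.011), and its TE change was 0.93 ± 0.20 (adjusted p = 0.093).

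Rps18 followed in Hbs1l-/- footprints, at 116, 115 and 91.8 CPM against 77.1, 80.4 and 65.1 CPM (0.53 ± 0.10, adjusted p = 0.0012). Rps24 was at 96.5, 86.98 and 107 CPM against 64.1, 73.3 and 86.6 CPM (0.38 ± 0.11) and Rps4x at 74.8, 79.3 and 84.2 CPM against 66.7, 52.9 and 73.4 CPM (0.31 ± 0.11), and Rps14 (0.22 ± 0.07) and Rps3 (0.17 ± 0.06) rose by less. Rps27l fell, at 132, 130.0 and 130.4 CPM against 159.9, 142 and 174 CPM (-0.28 ± 0.08, adjusted p = 0.013). In RNA, Rps14 was at 1594, 1598 and 2057 CPM against 1363, 1027 and 1342 CPM (0.49 ± 0.15) and Rps2 at 5231, 4939 and 5569 CPM against 4399.7, 3477 and 3347 CPM (0.49 ± 0.13), both with groups that did not overlap. The RNA calls of Rps14 and Rps2 were lost under 6 and 4 of 13 alternatives, and the footprint call of Rps4x under 5 of 11. Footprint calls of Rps24 and Rps27l were each lost under 2 of 11 and that of Rps12 under 1. Footprints of Rps6 (0.01 ± 0.25), Rps2 (-0.13 ± 0.08), Rps20 (0.24 ± 0.27), Rps27 (1.06 ± 0.42), Rps27a (0.23 ± 0.20), Fau (0.29 ± 0.20) and Rpsa (-0.24 ± 0.37) were not called. The footprint count of 7 was 1 without control replicate 1 and 4 without control replicate 3, where 2916 of 12129 and 4078 of 12175 genes were called. The RNA count was 0 or 1 without any single library, where 1817 to 2663 of all genes were called.

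Set side by side, 2 of 28 members rose in footprints of all 3 mutants, where 9.63% of all genes did. Rps18 rose by 0.53, 0.76 and 0.59 and Rps14 by 0.22, 0.52 and 0.21 in Hbs1l-/-, Pelo-/- and labelled Upf2-/- MEFs, and these comparisons share control samples. Rps27l made up 26.4 to 29.5% of the summed TPM of Rps27 and Rps27l in control MEFs, 21.2 to 24.1% in Hbs1l-/-, 25.8 to 26.9% in Pelo-/- and 27.7 to 28.1% in libraries labelled Upf2-/-. The Hbs1l-/- libraries lay below all others.

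Direct comparison of the mutants asked whether their effects differed. Each mutant's footprints came from its own pool, and summing controls over pools does not remove a difference between pools. With own-pool controls instead, fewer members were called in footprints in each pair (counts under the processing section). The TE differences rest on the same footprint libraries and were not refitted with own-pool controls. Rps16 also varied between pools in control libraries of the same number (above). Against Hbs1l-/-, Pelo-/- MEFs had higher footprints for 11 of 28 members (10.2% of all genes called higher), lower RNA for 26 of 29 (16.8% called lower) and higher TE for 22 of 28 (20.8% called higher), with none in the opposite direction. Rps16 differed most in footprints (2.47 ± 0.37) and TE (2.85 ± 0.40), and Rps14 in RNA (-1.11 ± 0.15). Against labelled Upf2-/-, Pelo-/- had 12 members higher and 1 lower in footprints (28.8% of all genes called), 4 lower in RNA (19.6% called lower) and 16 higher and 1 lower in TE (32.1% called). The member lower in both was Rps12, by 1.47 ± 0.12 and 1.27 ± 0.19 on the log2 scale, and Rps16 was the highest in both (1.96 ± 0.38 and 2.05 ± 0.41).

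Labelled Upf2-/- differed from Hbs1l-/- in footprints for 3 of 28 members (16.7% of all genes called). Rps12 (1.13 ± 0.15) and Rps19 (0.29 ± 0.08) were higher and Rps15a (-0.61 ± 0.18) was lower. RNA was lower for 22 of 29 (12.6% of all genes called lower), Rps7 by the most (-0.78 ± 0.17). TE was higher for 3 of 28 (7.02% of all genes called higher), namely Rps12 (1.13 ± 0.18), Rps26 (0.66 ± 0.16) and Rps19 (0.54 ± 0.13).

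The transcripts of the members were examined one by one, because NMD acts on single transcripts. In the libraries labelled Upf2-/-, 12 of 156 tested transcripts of the members rose, against 4.37% of all transcripts called higher, and 5 fell, against 0.985% called lower. Of the 7 annotated as NMD targets 3 rose, where 14.7% of all NMD-annotated transcripts did (434 of 2945). These 7 are also the members' tested transcripts whose stop codon lies over 50 nt upstream of the last exon junction, and of the 74 others with an annotated stop codon 3 rose and 5 fell. No transcript of the members was called in Hbs1l-/- by edgeR (153 tested, 20 past an unadjusted p of 0.05, where 17.7% of all transcripts were, and 1.31% of all transcripts called). In Pelo-/- 5 of 144 fell (1.64% of all called lower), and none was called without any single library. Splitting reads among transcripts that share exons is uncertain, and the error of that split was not assessed.

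Rps9-210, Rps12-204 and Rps19-205 were the NMD-annotated transcripts that rose. Their stop codons are printed in capitals with 12 bases on each side, beside the stop codon of Rps9-204 in its last exon, to show where each reading frame ends; Rps9-204 itself also rose (1.87) (coding strand, GRCm38, Gencode M21).
Rps9-210: agcctttggagcTGAcagatgtgagct
Rps9-204: gaggaagaggatTAAttaatacttggc
Rps12-204: gcacaaaagttcTGAatgtcatccggc
Rps19-205: caacacagcctcTGAaaaccaaaaggt

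The stop codon of Rps9-210 lies at chr7:3706018-3706020 (plus strand) in exon 4 of 5, 161 nt before the last junction, after 135 codons. Rps9-204 ends at chr7:3706826-3706828 after 194 codons. The stop codon of Rps12-204 lies on the minus strand at chr10:23786658-23786660 in exon 1 of 4, 238 nt before the last junction, and its annotated reading frame of 47 codons lacks its 5′ end. The stop codon of Rps19-205 lies at chr7:24886151-24886153 (plus strand) in exon 4 of 7, 273 nt before the last junction and after 72 codons.

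Rps9-210 was at 213, 219 and 214 TPM in the libraries labelled Upf2-/- and at 13.8, 13.6 and 14.4 TPM in controls (log2 change 3.90 ± 0.12), and it made up 9.89 to 11.7% of Rps9 RNA against 0.568 to 0.683%. Rps12-204 was at 263, 198 and 158 TPM against 25.2, 26.6 and 28.95 TPM (2.91 ± 0.18), or 10.5 to 11.8% of Rps12 RNA against 1.14 to 1.30%. Rps19-205 was at 375, 359 and 284 TPM against 59.8, 94.97 and 154 TPM (1.70 ± 0.30). The groups did not overlap for any of the 3. In Hbs1l-/- and Pelo-/- MEFs, Rps9-210 was at 15.3 to 16.1 and 11.9 to 14.6 TPM, Rps12-204 at 19.4 to 25.2 and 22.6 to 23.8 TPM, and Rps19-205 at 77.1 to 91.1 and 77.001 to 111 TPM. Footprints of Rps12, Rps9 and Rps19 rose in the libraries labelled Upf2-/- (above), and footprints were not assigned to transcripts. Rpsa-206, also annotated as an NMD target, changed by -0.32 ± 0.13 and was not called. Rpsa-206 was estimated at 71.3 to 72.7% of Rpsa RNA in controls and 71.1 to 71.9% in libraries labelled Upf2-/-.

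Other transcripts that rose were not annotated as NMD targets. Rps10-206, a protein-coding model with no annotated stop codon, was at 65.5, 66.01 and 77.96 TPM against 2.97, 3.71 and 3.299 TPM (4.38 ± 0.18), the largest rise among the members' transcripts. Rps15a-205 was at 23.2, 20.3 and 23.8 TPM against 2.92, 2.205 and 1.57 TPM (3.32 ± 0.32) and Rps15-201 at 75.4, 61.5 and 93.8 TPM against 8.84, 9.48 and 6.05 TPM (3.24 ± 0.29). These made up at most 3.198%, 2.86% and 3.76% of their gene's RNA. Rps18-207 (2.50 ± 0.20), Rps12-209 (1.84 ± 0.23) and Rps27-209 (1.26 ± 0.27) are models with a retained intron, and Rps9-204, Rps24-207 and Rps6-204 rose by 1.87, 1.57 and 1.42. The 17 called transcripts became 8 without any 1 of the mutant libraries, 11 without control replicate 1 and 10 without control replicate 2 or 3. Of the 12 that rose, 8 kept their call under all 7 alternatives. Rps19-205 lost it under 4 (adjusted p up to 0.11 by edgeR), Rps6-204 under 4 (0.075), Rps24-207 under 5 (0.14) and Rps27-209 under all 7 (0.13). Of the 5 that fell, Rps4x-201, Rps15a-204, Rps18-201 and Rps19-202 lost their call under all 7 and Rps19-203 under 5.

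**Figure D4:**
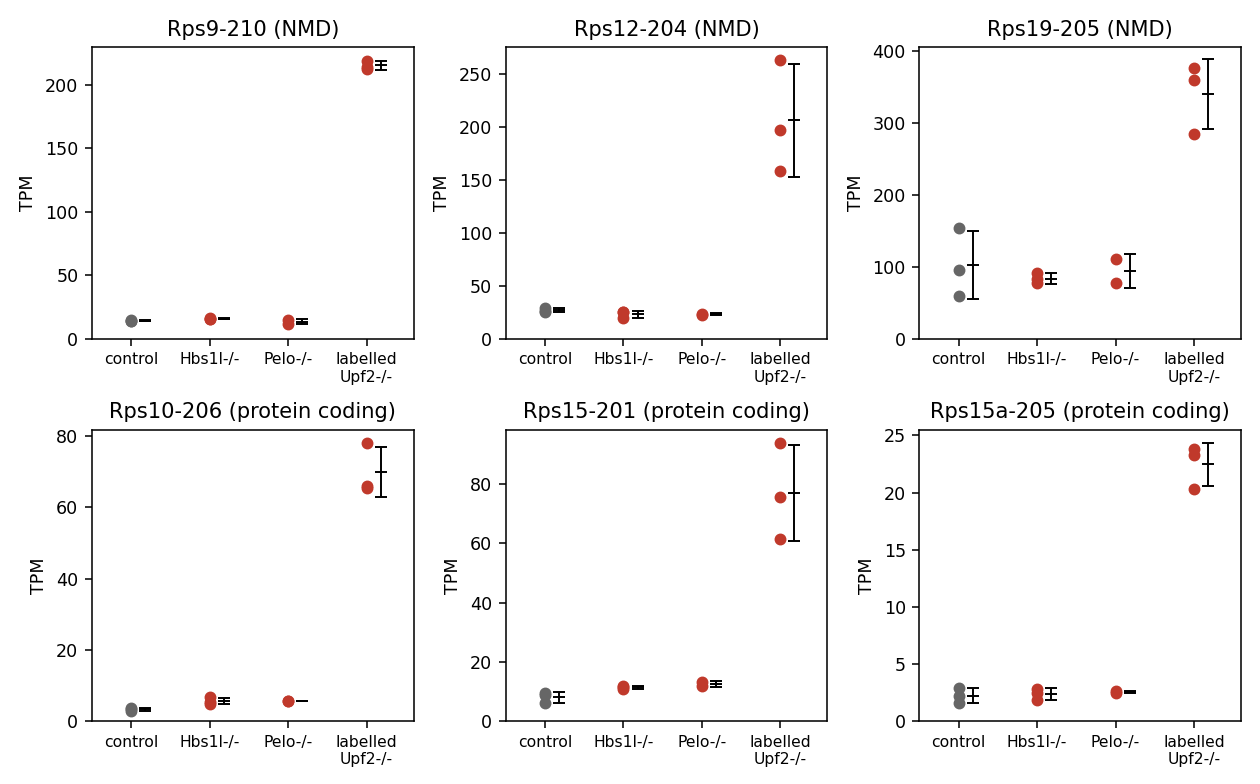
TPM (y axis) of 6 transcripts of small-subunit genes in control, Hbs1l-/-, Pelo-/- and labelled Upf2-/- MEFs; points are RNA libraries, and the marks beside them the mean with SD. All 3 libraries labelled Upf2-/- lie above every other library in each panel, for example at 213 to 219 TPM for Rps9-210 against 13.6 to 14.4 TPM in controls.

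Because the mRNAs of ribosomal proteins are classed by their first bases, transcription starts were read from the RefSeq promoter table (GRCm38.p6), where 25 of 29 members matched with 30 starts. A C followed by at least 4 bases that are each C or T, beginning exactly at the annotated start on the coding strand, was found at 7 of 30 starts (23.33%), at 8 of 45 starts of 60S genes (17.78%) and at 823 of 32851 starts of all genes (2.51%). Within 10 bases on either side it was found at 16 of 30 (53.33%) and at 30.72% of all starts. The 7 that carry it at the start are shown from 10 bases before the start, with the run in capitals.
Fau: gcccccacttCTTCCTCTTTCTTgactc
Rps6: gaagtcgggcCTCTTTTTCgtgacgcct
Rps10: gcgcacgcccCTTCCTTTCCagcctccg
Rps15a: tttctgccatCTTCCCTCgccggtgagt
Rps18: cacttccgctCTCTCTTCCacaggaggc
Rps21: aggacccgccCTCCTgcccaatagtgct
Rps27: cgctttcgctCCTTTCCggcggtgacga

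They lie at chr19:6057937-6057964 (Fau, plus strand), chr4:86857350-86857377 (Rps6, minus), chr17:27635227-27635254 (Rps10, minus), chr7:118116130-118116157 (Rps15a, minus), chr17:33955648-33955675 (Rps18, minus), chr2:180257369-180257396 (Rps21, plus) and chr3:90213631-90213658 (Rps27, minus). Rps21 has a further annotated start without the run. In Pelo-/- the TE changes were 1.54 for Fau, 1.13 for Rps18, 0.68 for Rps15a, -0.06 for Rps6, 0.97 for Rps21 and 0.86 for Rps27, with those of Rps6 and Rps27 not called, against a median of 0.98 over all 28 members tested. Rps10 was not tested in TE. An annotated start is not a measured one, and the match is a description.

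In Hbs1l-/- embryos most footprint estimates of the members were below 0 against wild-type embryos, but few were called. By edgeR 2 of 28 fell, against 0.955% of all genes called lower, and none rose. Estimates were below 0 for 25 of 28 members, with a median log2 change of -0.54 (all genes 0.01), and 13 were past an unadjusted p of 0.05, where 18.6% of all genes were. The groups did not overlap for 12 members, all lower, where 12.3% of all genes were lower without overlap. DESeq2 called 6 members and 3.78% of all genes.

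Rps16 was at 18.4, 3.02 and 1.45 CPM against 72.3, 55.01 and 41.1 CPM (-2.67 ± 0.52, adjusted p = 0.024), and Fau at 22.5, 10.8 and 5.81 CPM against 70.3, 72.5 and 47.8 CPM (-2.19 ± 0.34, adjusted p = 0.0055). Mutant replicate 1 was the highest of its group in both genes. The call was lost under 5 of 11 alternatives for Rps16 (adjusted p up to 0.13 by edgeR) and under 1 of 11 for Fau (0.063). Over these alternatives the log2 change ran from -4.55 to -2.28 for Rps16 and from -2.88 to -1.89 for Fau. Rps21 was at 279, 94.1 and 121 CPM against 337, 314 and 396 CPM (-1.07 ± 0.30, adjusted p = 0.081) and Rps9 at 1054, 648 and 581 CPM against 1356, 1229 and 1115 CPM (-0.69 ± 0.20, adjusted p = 0.09). Rps3 was at 1991, 1546 and 1609.8 CPM against 2336, 1949 and 2085 CPM (-0.31 ± 0.15). Rps25 lay the other way at 91.5, 201 and 314 CPM against 107, 126 and 75.8 CPM (0.96 ± 0.32, adjusted p = 0.14), with groups that overlapped. Of the other members followed throughout, Rps2 (-0.02 ± 0.14), Rps6 (0.51 ± 0.51), Rps20 (-0.77 ± 0.37), Rps27 (-0.70 ± 0.31), Rps27l (-0.30 ± 0.17), Rps27a (-1.72 ± 0.52) and Rpsa (-0.67 ± 0.44) were not called.

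Without mutant replicate 1, 14 members fell and 1 rose. In that fit 1211 of 11376 genes were called lower and 1098 higher, against 109 lower and 105 higher of 11416 with all libraries. The count of members called was 1 without mutant replicate 2 or control replicate 1 or 3, and 0 without control replicate 2. In these fits 28 to 119 of all genes were called. Of 4 sets of markers of other cell types, 3 moved with genotype in these whole embryos. The summed footprints of 6 erythroid markers, all detected, were 3110 to 7958 CPM in mutants against 12624 to 16488 CPM. Those of 6 trophoblast markers were 147 to 1215 CPM against 32.9 to 51.6 CPM and those of 5 cardiomyocyte markers 564 to 864 CPM against 1415 to 1694 CPM. Those of 6 visceral endoderm markers overlapped, at 10499 to 20177 CPM in mutants against 13470 to 15218 CPM. Their part in the members' values was not tested, and fewer cells of a type cannot be told apart from fewer footprints per cell. Of the 60S genes, 6 of 45 fell, with a median of -0.61.

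In Hbs1l cKO cerebella no member was called by edgeR or DESeq2 (5 of 28 past an unadjusted p of 0.05, where 13.4% of all genes were). Of all genes, 0.0624% were called by edgeR and 3.35% by DESeq2. Estimates were above 0 for 24 of 28 members, with a median of 0.25 (all genes 0.00). The median was 0.12 without control replicate 1 and 0.33 without control replicate 3. The groups did not overlap for 7 members that were higher (9.38% of all genes) and 1 that was lower (8.91%). Rps4x was at 30.9, 22.2 and 29.5 CPM against 18.6, 18.2 and 19.9 CPM (0.55 ± 0.15, adjusted p = 0.18) and Rps2 at 31.1, 29.9 and 36.1 CPM against 21.6, 24.9 and 24.3 CPM (0.46 ± 0.13, adjusted p = 0.19). Rps28 had the largest estimate (0.58 ± 0.26). Fau was at 34.2, 29.3 and 21.4 CPM against 24.7, 41.1 and 23.8 CPM and Rps16 at 17.4, 16.2 and 30.2 CPM against 17.7, 24.7 and 16.9 CPM, both with overlapping groups. Rps3 (0.28 ± 0.13), Rps6 (0.05 ± 0.28), Rps20 (0.18 ± 0.17), Rps27 (0.08 ± 0.37), Rps27l (0.32 ± 0.21), Rps27a (0.12 ± 0.19) and Rpsa (0.25 ± 0.28) were likewise not called. Without control replicate 3, 2 members were called, where 560 of 14597 genes were, against 9 of 14430 with all libraries.

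The effect of Hbs1l loss in embryos less that in cerebella was below 0 for 26 of 28 members, with a median log2 difference of -0.79. None was called by edgeR (0.732% of all genes were, and 16 members were past an unadjusted p of 0.05, where 15.7% of all genes were). The count was 12 without mutant embryo replicate 1 and 3 without control cerebellum replicate 3.

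**Figure D5:**
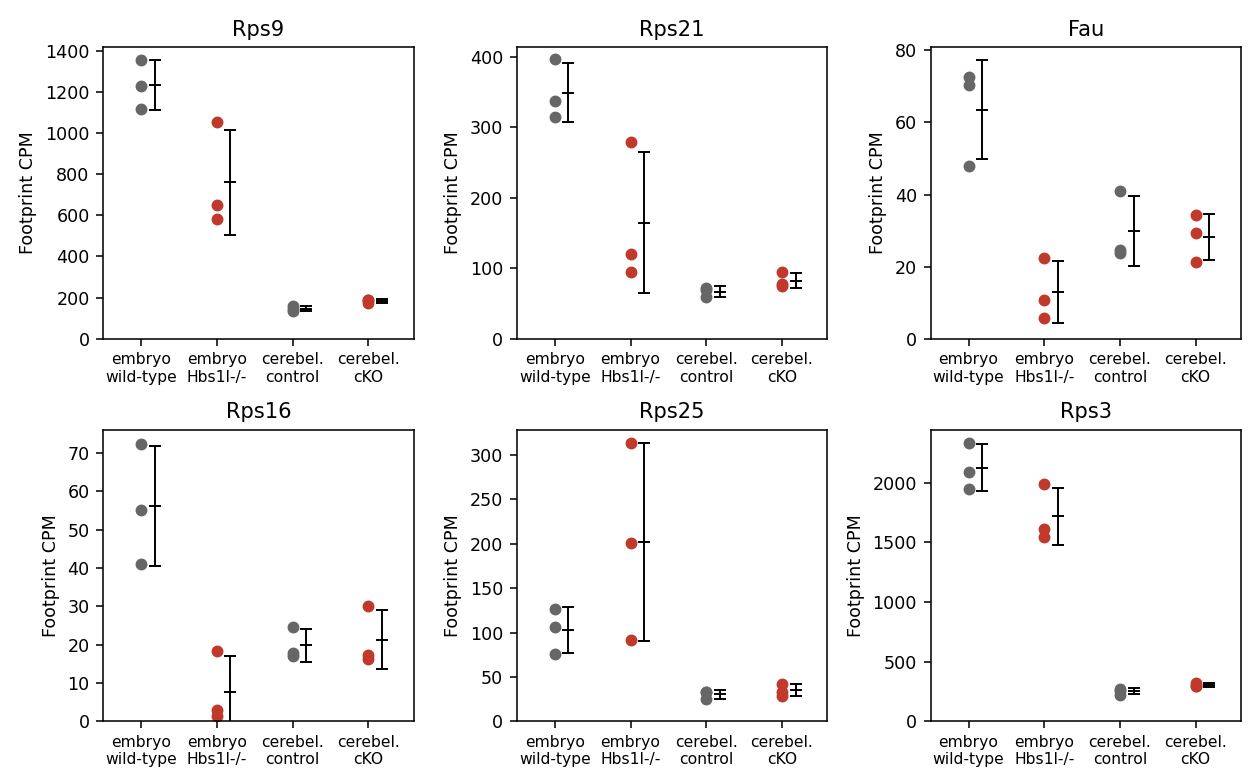
Footprint CPM (y axis) of 6 small-subunit genes in wild-type and Hbs1l-/- embryos and in control and cKO cerebella; points are libraries, and the marks beside them the mean with SD. Fau and Rps16 are separate between embryo groups (for Fau, 5.81 to 22.5 CPM against 47.8 to 72.5 CPM) and overlap between cerebellum groups.

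Across control tissues most members were called lower outside the embryo. In control cerebella 26 of 28 members had lower footprints than in wild-type embryos (36.1% of all genes called lower), none higher, with a median of -2.27. The differences that were called ran from Rps18 (-3.66 ± 0.13), Rps26 (-3.38 ± 0.23) and Rps2 (-3.28 ± 0.13) to Fau (-0.998 ± 0.24) and Rps7 (-0.93 ± 0.24). In control MEFs 24 were lower than in embryos (39% of all genes called lower), with a median of -1.24, and Rps15a was higher (0.55 ± 0.14). Rps27 (-3.81 ± 0.35), Rps23 (-3.46 ± 0.25) and Rps16 (-3.09 ± 0.37) differed most there. Tissue, strain and sequencing pool cannot be told apart in these comparisons, nor can size selection of the fragments in the one with cerebella, for which it differed.

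Genes that build, modify or regulate the subunit were followed from lists. Of 17 assembly factors of the 40S subunit, footprints of 10 rose in Hbs1l-/-, 11 in Pelo-/- and 11 in labelled Upf2-/- MEFs and none fell, where 17.4%, 22.9% and 22.3% of all genes were called higher. Tsr2, the chaperone of Rps26, rose most in labelled Upf2-/- (footprints 1.41 ± 0.10, RNA 1.32 ± 0.11), and Tsr1 footprints rose by 0.89 ± 0.06. In Pelo-/- RNA, 6 of the 17 fell and 1 rose, where 16.6% of all genes were called lower and 15.5% higher. Mphosph10, of the early precursor particle, fell by 1.68 ± 0.15 and the kinase Riok2 by 1.53 ± 0.14, and their TE rose by 2.17 ± 0.17 and 1.62 ± 0.14.

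Of 11 genes that ubiquitinate the subunit, reverse it or split stalled ribosomes, 4 rose and 2 fell in Pelo-/- footprints, where 22.9% of all genes were called higher and 21.2% lower. Ascc3, the helicase that separates collided ribosomes, rose in footprints (0.70 ± 0.06) while its RNA fell by 1.53 ± 0.27. Rnf14 footprints fell (-0.57 ± 0.07), and those of Zfp598, the ligase for Rps10 and Rps20, rose by 0.47 ± 0.07. In labelled Upf2-/- RNA 6 of the 11 rose, where 13.2% of all genes were called higher, led by the deubiquitinase Otud3 (0.83 ± 0.13). In footprints 2 of the 11 rose, where 22.3% of all genes were called higher. In TE 5 fell and 1 rose, where 11.8% of all genes were called lower and 8.47% higher. TE of Otud3 fell by 0.65 ± 0.19. Of 13 tested regulators of TOP mRNAs and of S6 phosphorylation, 4 rose and 5 fell in Pelo-/- RNA (15.5% of all genes called higher and 16.6% lower), among them Larp1, which binds TOP mRNAs (0.73 ± 0.15), and the S6 kinase gene Rps6kb1, which fell by 0.79 ± 0.10 with a TE rise of 0.78 ± 0.11.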

How the data were processed

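Ribosome footprints were measured in 30 libraries and polyadenylated RNA in 11. The footprint files hold counts per gene deposited by the authors, and the RNA files hold kallisto estimated counts and TPM per transcript, as deposited by the authors. The submitters' processing notes name kallisto 0.42.4, Bowtie2 2.2.3, HISAT2 2.1.0, featureCounts and the mm10 build. The treatment of multi-mapped footprints is not given in the sources used here.

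Transcript estimates were added up for each gene and rounded to whole numbers. Counts were tested with edgeR 4.0.16 (R 4.3.3; quasi-likelihood test, filterByExpr, TMM factors, Benjamini-Hochberg over all features tested, adjusted p of at most 0.05), with histone genes left out of footprint and TE fits as in the study's methods. TE changes came from the assay-by-genotype interaction, scaling footprints and RNA separately by TMM. CPM values of members per library are TMM scaled, and CPM per kb, marker sums and Upf2 levels are scaled to the library total alone. Mutants were compared directly with same-numbered control libraries of the 3 pools summed into 1 sample each. Scripts were tested on simulated data. Tables were read with Python 3.11.15, pandas 2.3.3 and numpy 2.4.6.

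Alternatives were DESeq2 1.42.0, RLE factors, TMM without ribosomal protein genes, no low-count filter, the replicate number as a block, RNA with named pseudogenes added or from protein-coding transcripts only, own-pool controls, and leaving out each library. Values per library are given for up to 5 called members with the largest change per comparison, and Rps2, Rps3, Rps6, Rps10, Rps20, Rps27, Rps27l, Rps27a, Fau and Rpsa are followed throughout. Up to 3 genes per list were named by size. The members and lists were chosen with earlier results of these data known. Replicates are individual embryos, cerebella or pools of embryos, and the p-values measure the spread between them.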

Additional observations from a re-analysis of the deposited data

Results flagged for a closer look

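Tests of the difference between mutants were past the threshold for members in each pair. Between Pelo-/- and Hbs1l-/- MEFs, 11 members differed in footprints (Rps16 by the most, log2 difference 2.47), 26 in RNA (Rps14, -1.11) and 22 in TE (Rps16, 2.85), where 18.1%, 35.2% and 40.7% of all genes were called. Between labelled Upf2-/- and Hbs1l-/- MEFs, 3 members differed in footprints (Rps12, 1.13), 22 in RNA (Rps7, -0.78) and 3 in TE (Rps12, 1.13), where 16.7%, 29.6% and 14.9% of all genes were called, so the footprint and TE counts of 28 members lay below the share of all genes. Between Pelo-/- and labelled Upf2-/- MEFs, 13 members differed in footprints (Rps16, 1.96), 4 in RNA (Rps24, -0.66) and 17 in TE (Rps16, 2.05), where 28.8%, 32% and 32.1% of all genes were called, so the RNA count of 29 members lay below the share of all genes. Each pair shares a mutant group with the other pairs. The footprint counts were lower in each pair with own-pool controls, which were not run for TE. The RNA counts of the pairs with Pelo-/- were lower without either Pelo-/- library (both below).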

How the results depend on the processing

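No result for a single gene or transcript changed direction under the alternatives run, and among these 532 alternative values kept their side of the threshold while 140 lost the call, over 61 results. The members' median log2 change was near 0 and changed sign in 3 comparisons when 1 library was left out: RNA in Hbs1l-/- (0.06, and -0.03 without control replicate 2), TE in Hbs1l-/- (0.05, and as low as -0.05 without Hbs1l-/- footprint replicate 1, also below 0 without control RNA replicate 1 or 3), and footprints of labelled Upf2-/- against Hbs1l-/- (-0.04, and up to 0.03 without Hbs1l-/- replicate 1 or 2 or labelled Upf2-/- replicate 1 or 3). Counts of called members that moved by over 1.5 times were as follows, and the cause was not tested. In Hbs1l-/- embryos DESeq2 called 6 and the fit without a low-count filter 11 (1 higher). DESeq2 called 13 in labelled Upf2-/- RNA and 4 in Hbs1l-/- TE. With own-pool controls the footprint counts were 6 (Pelo-/- against Hbs1l-/-), 1 (labelled Upf2-/- against Hbs1l-/-) and 8 (Pelo-/- against labelled Upf2-/-), and RLE factors gave 2 in RNA of the last pair. The replicate block gave 10 members in embryos and 9 in Pelo-/- RNA and moved no other count by over 1.5 times. Samples share only a number: over 23 pairs correlations ran from -0.24 to 0.22, and 7 of 23 correlated best with their own number. With each library left out in turn, counts ranged in footprints from 0 to 15 (embryos), 0 to 2 (cerebella), 0 to 12 (their difference), 1 to 7 (Hbs1l-/-), 14 to 17 (Pelo-/-), 6 to 13 (labelled Upf2-/-), 24 to 27 (control MEFs against embryos) and 26 to 27 (control cerebella against embryos). In RNA they ranged from 0 to 1, 3 to 26 and 1 to 10, in TE from 0 to 1, 22 to 27 and 7 to 10, and in transcripts from 0 to 0, 0 to 0 and 8 to 11, each in the order Hbs1l-/-, Pelo-/-, labelled Upf2-/-. For Pelo-/- against Hbs1l-/- they ranged from 7 to 14 (footprints, 7 without Hbs1l-/- replicate 3), 10 to 27 (RNA, 10 and 15 without Pelo-/- replicate 1 and 2) and 19 to 23 (TE). For labelled Upf2-/- against Hbs1l-/- they ranged from 1 to 4 (footprints, 1 without Hbs1l-/- replicate 1 or 3 or labelled Upf2-/- replicate 1), 9 to 22 (RNA, 9 without Hbs1l-/- replicate 3) and 3 to 4 (TE). For Pelo-/- against labelled Upf2-/- they ranged from 9 to 16 (footprints), 0 to 3 (RNA, 0 without either Pelo-/- library or labelled Upf2-/- replicate 2) and 10 to 19 (TE, 10 without Pelo-/- RNA replicate 1). With 2 Pelo-/- RNA libraries, leaving 1 out assumes that the lone library varies like the controls. Rps6, Rps13, Rps23, Rps27, Rps29 and Rpsa were listed at no more than 4.63 CPM in any control MEF footprint library, and Rps10 was too low to be tested, so values for these members rest on few footprints.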
